A study of Mus musculus with 8 samples.

Results

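The genes described here are the long non-coding RNA (lncRNA) genes that host microRNAs or small nucleolar RNAs (snoRNAs), measured in nuclei of the mouse kidney. They were chosen by their names alone: symbols made of Mir, a number and hg, symbols made of Snhg and a number, and Gas5, with Mir205hg left out. A gene also needed at least 5 unique molecular identifiers (UMIs, each the tag of 1 captured transcript) over all nuclei kept. Of the 32285 genes in the files, 29 had such a name and 27 had enough UMIs, namely 9 microRNA host genes and 18 snoRNA host genes. Mir9-3hg with 3 UMIs and Mir124a-1hg with 1 UMI were just under the limit, and the nearest gene above it was Mir124-2hg with 43 UMIs. Snhg4 had 2 entries, ENSMUSG00000117869 with 5601 UMIs and ENSMUSG00000117694 with 694 UMIs, which overlap each other on the same strand. The second also overlaps Matr3, so that the split of reads between them is uncertain. The gene annotation lists the second entry as protein-coding, but it is counted and tested with the lncRNAs here.

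Kidneys of 8 male C57BL/6J mice were analyzed by single-nucleus RNA-seq, 1 mouse per library and 2 per group. Ctrl mice were Bmal1 lox/lox, and their cKOt littermates were Bmal1 lox/lox/Pax8-rtTA/LC-1, in which doxycycline induces Cre recombinase in the renal tubule and inactivates Bmal1 (Arntl), a core gene of the circadian clock. Mice of both genotypes drank doxycycline (2 mg/ml) for 2 weeks from 8 weeks of age and were killed at 14 weeks, at ZT4, in the light phase when mice rest, or at ZT16, in the dark phase when they are active. The Pax8 promoter drives the transgene in tubular epithelium, so vascular, stromal and immune cells of cKOt mice were not targeted.

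A host gene is transcribed as a long precursor. MicroRNAs are cut out of it as hairpins by the Drosha and Dgcr8 complex, exported, trimmed by Dicer1 and loaded on Argonaute proteins, where the seed (bases 2 to 8) pairs with target mRNAs. Most snoRNAs lie in introns and are released after splicing. They then guide 2′-O-methylation (box C/D) or pseudouridylation (box H/ACA) of ribosomal RNA, while many of the spliced host transcripts are degraded by nonsense-mediated decay. Counts of a host gene therefore measure the precursor or its spliced remainder in the nucleus and not the mature small RNA, which the 3′ chemistry used here does not capture.

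By the GENCODE annotation, the host genes contained 25 distinct microRNA genes in 13 of the entries. By symbol, 19 of them matched the RefSeq mature sequences used here, in all 36 arms. The others had no match there, which does not show that RefSeq lacks them. The arms below belong to the hosts that the results turn on, and are written 5′ to 3′ with the seed in capitals and with positions in GRCm38.p6. The first 4 lines are shown because Mir99ahg and Mir100hg, 2 host genes on different chromosomes, carry the same families: miR-99a-5p and miR-100-5p share the seed ACCCGUA, and the mature miR-125b-5p is identical from both loci.
mmu-miR-99a-5p, chr16:77598940-77598961 (+): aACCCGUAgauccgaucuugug
mmu-miR-100-5p, chr9:41531437-41531458 (+): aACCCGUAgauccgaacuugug
mmu-miR-125b-5p, chr9:41581940-41581961 (+) and chr16:77646279-77646300 (+): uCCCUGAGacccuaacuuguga
mmu-let-7c-5p, chr16:77599672-77599693 (+): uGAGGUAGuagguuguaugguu
The next lines are the arms of Mir142hg, Mir155hg and Mir22hg.
mmu-miR-142a-5p, chr11:87756867-87756887 (+): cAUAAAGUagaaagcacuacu
mmu-miR-142a-3p, chr11:87756903-87756925 (+): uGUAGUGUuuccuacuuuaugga
mmu-miR-155-5p, chr16:84714143-84714165 (+): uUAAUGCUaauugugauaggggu
mmu-miR-22-3p, chr11:75463772-75463793 (+): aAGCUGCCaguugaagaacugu
The last 4 lines come from the cluster in Mir17hg and form 2 seed families of 2 arms each.
mmu-miR-17-5p, chr14:115043684-115043706 (+): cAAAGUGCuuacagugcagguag
mmu-miR-20a-5p, chr14:115044183-115044205 (+): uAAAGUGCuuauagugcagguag
mmu-miR-19a-3p, chr14:115044048-115044070 (+): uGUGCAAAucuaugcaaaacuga
mmu-miR-19b-3p, chr14:115044358-115044380 (+): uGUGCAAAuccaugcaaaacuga
Among the snoRNA hosts, Snhg14 had 208 annotated snoRNA genes within its bounds, Gas5 had 10, Snhg1 had 8 and Snhg12 had 5. A few snoRNA hosts held a microRNA gene as well, Mir6516 in Snhg20, Mir3069 in Snhg10 and Mir1949 in Snhg4.

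The 8 libraries held between 8758 and 10975 nuclei and between 36548873 and 54500820 UMIs, of which lncRNAs made up 14.5% to 17.04%. Malat1 alone took 76.3% to 80.9% of the lncRNA UMIs. No library pair shared more than 0.437% of its barcodes. Arntl, the targeted gene, had more UMIs in cKOt than in Ctrl libraries, with 164.9 to 242 UMIs per 1000000 UMIs in cKOt against 27.8 to 133 in Ctrl. Counts per gene do not separate the deleted part from the rest, so they do not check the genotype labels. Dbp, a gene activated by BMAL1, had 27.1 and 20.8 UMIs per 1000000 in Ctrl ZT4 and 2.90 and 5.54 in cKOt ZT4 (log2 fold change -2.45, edgeR adjusted p = 0.0117). Levels over all nuclei are given as lncRNA CPM, the UMIs of a gene per 1000000 lncRNA UMIs of its library after TMM scaling, and levels in a cell class as all-gene CPM, the UMIs of a gene per 1000000 UMIs of all genes in that class, or in the library where a level over all nuclei is given so. Values are means ± SD, over the 2 libraries of a group, the 4 Ctrl libraries for class levels and all 8 libraries for levels per length.

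Mir99ahg was the host gene with the most UMIs. It had 303235, or 0.502% of all lncRNA UMIs, and the next was Snhg11 with 120916 UMIs. Mir22hg (23175 UMIs), Mir100hg (17107), Snhg20 (16161) and Gas5 (14359) followed. The other 21 host genes ranged from Snhg14 with 9906 to Mir124-2hg with 43. Long genes collect more reads in nuclei, and the order changed when levels were divided by the length of the annotated gene. Per kilobase of gene span, Snhg11 was highest with 189.7 ± 30.5 lncRNA CPM per kb. Snhg9 (103 ± 20.8), Snhg20 (83.9 ± 7.77), Mir22hg (73.7 ± 13.7), Snhg8 (61.3 ± 14.8) and Gas5 (54.3 ± 9.96) came next. Mir99ahg, which spans 615.57 kb, had 8.202 ± 1.16 lncRNA CPM per kb of span and was 14th of 27, and Mir100hg, which spans 389.97 kb, had 0.719 ± 0.111 and was 21st. The spreads of Snhg9, Snhg20 and Mir22hg overlapped, as did those of Mir22hg, Snhg8 and Gas5. Per kilobase of exon Mir99ahg had 114.9 lncRNA CPM and was 4th, after Snhg11 (233.7), Mir22hg (197.3) and Snhg3 (139.3). The level of Snhg14, the long imprinted transcript that runs antisense over Ube3a, was 0.244 ± 0.0239 lncRNA CPM per kb of span. The sources used here do not give the strand used in counting. Whether reads of Snhg14 were kept apart from those of Ube3a could therefore not be checked. The same holds for Gas5 with Zbtb37, Snhg1 with Slc3a2, Snhg6 with Sgk3 and Snhg9 with Rps2. It also holds for Snhg16 with St6galnac2, Snhg18 with Sema5a, Mir133a-1hg with Mib1 and Mir155hg with Mrpl39. Mir100hg likewise has Gm48742 on the opposite strand, and the Snhg4 entry ENSMUSG00000117694 has Gm50163. On the same strand, Snhg3 overlaps Rcc1, Mir22hg overlaps Tlcd2 and Snhg14 overlaps Gm38393.

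**Figure D1:**
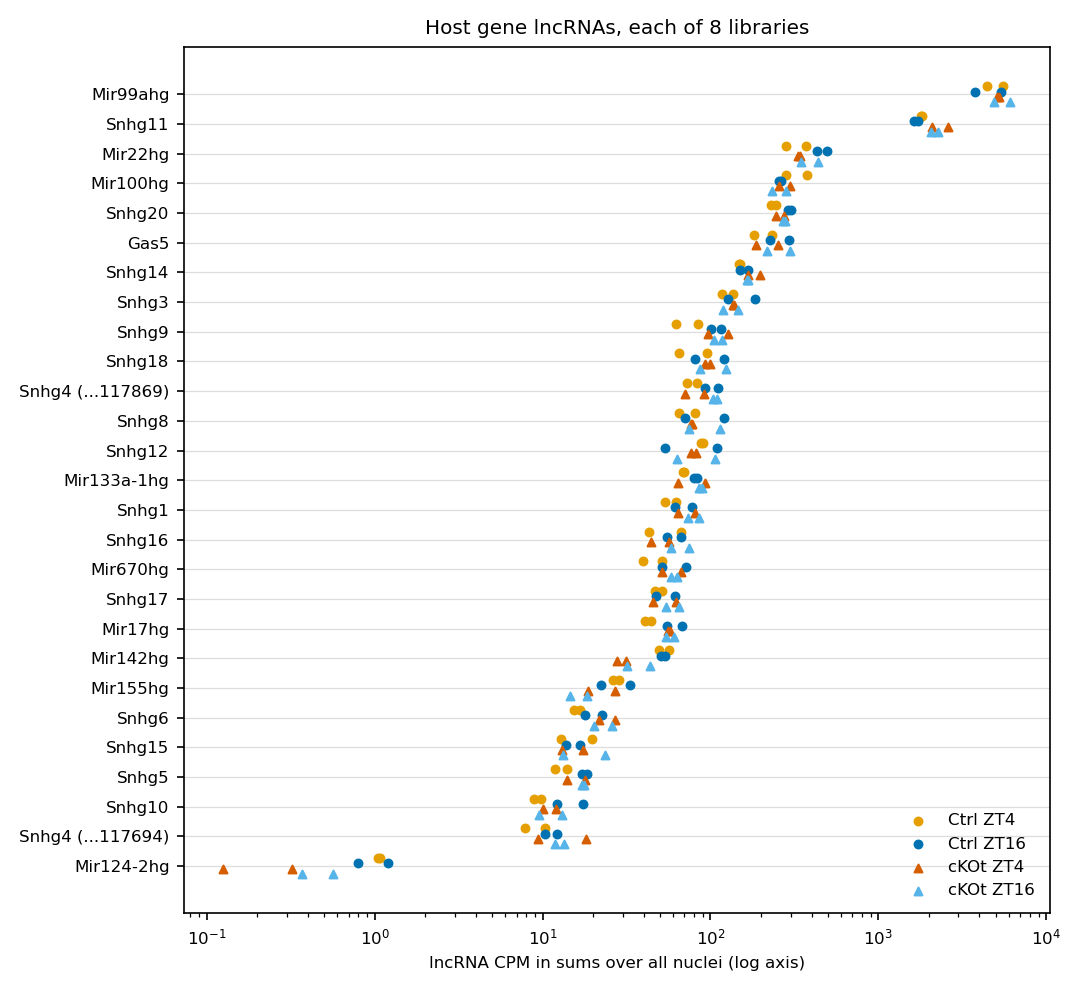
Each of the 27 host genes is a row, and each point is 1 library, coloured by group, at its lncRNA CPM in sums over all nuclei (log axis). Mir99ahg sits between 3745.5 and 6119.5, Snhg11 between 1631.2 and 2589, and Mir124-2hg at 1.21 or less.

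How evenly the nuclei of different cell classes carried a host gene was described with the Gini coefficient over 21 classes, computed from the percentage of UMI-positive nuclei in the 4 Ctrl libraries. It is 0 when all classes have the same share and approaches 1 when a single class has all. Classes were named by marker genes and stand for nuclei that resemble the named cell, for instance vascular (Vasc), mesangial or pericyte (Mes/Per), smooth muscle or juxtaglomerular (SMC/JGC), proximal convoluted (PCT) and straight tubule (PST), thick ascending limb (TAL), connecting tubule (CNT), cortical (CCD) and medullary collecting duct (MCD), alpha and beta intercalated cells (aIC, bIC), urothelium (UT), myeloid (Myel) and T or natural killer cells (TC/NK). Cluster 5 (leading genes of the distal convoluted tubule) and cluster 17 are given by number because their leading genes failed the check against markers of other classes. All class levels are descriptions, without a test. For the 26 host genes with at least 200 UMIs the median Gini coefficient was 0.374, and for the 2809 lncRNAs with as many UMIs it was 0.536, with 0.417 as the value under which the lowest 25% of them lay. Abundance and class composition enter both values. The 21 classes include 2 too small to compare. Over the 19 compared classes Mir100hg had 0.525 instead of 0.615 and Mir670hg 0.417 instead of 0.560. Mir142hg had 0.879 instead of 0.865, and Snhg4 (ENSMUSG00000117869) 0.509 instead of 0.495.

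Among the microRNA hosts, Mir142hg, whose microRNAs are a hallmark of blood cells, was the most unequal of those with at least 200 UMIs, with a Gini coefficient of 0.865. Mir124-2hg had 0.910, from 43 UMIs. Mir142hg had 942 ± 158 all-gene CPM in TC/NK and 304 ± 64.5 in Myel, and no compared class of other cells was above 7.29. TC/NK was the highest class in 8 of 8 libraries. In Ctrl, 75.8% of TC/NK nuclei and 43.0% of Myel nuclei had a Mir142hg UMI against 0.513% in PST, and after thinning each nucleus to 800 UMIs the shares in TC/NK and Myel were 52.7% and 22.3%. The small B cell class, not compared because of its few nuclei, had 639 ± 219 all-gene CPM. Mir155hg, host of the activation-linked miR-155 of immune cells, was spread more evenly, with a Gini coefficient of 0.446. Its mean was highest in TC/NK at 21.6 ± 26.5 all-gene CPM, but with a range from 0 to 54.1, so that TC/NK, Myel (12.6 ± 7.67), Mes/Per (9.14 ± 4.41) and PST (8.28 ± 0.878) did not differ beyond their spread. PST held 541 of its 1422 UMIs.

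Mir100hg and Mir99ahg, hosts of the shared families shown above, were distributed differently. Mir100hg (Gini coefficient 0.615) was highest in Mes/Per with 345 ± 68.9 all-gene CPM, followed by SMC/JGC (230 ± 98.8), MCD (137 ± 50.3) and Vasc (97.3 ± 46.8), and it was lowest in PST with 7.70 ± 1.63. The 8 nuclei of adipocytes in Ctrl gave 529 ± 287 over 3 libraries. Mir99ahg had the lowest Gini coefficient (0.137), but after thinning each nucleus to 800 UMIs its 0.182 was above those of Snhg3 (0.151), Snhg9 (0.153), Snhg20 (0.154) and Gas5 (0.164). It was highest in Vasc with 1453 ± 56.9 all-gene CPM, in 8 of 8 libraries, against 876 ± 40.0 in Myel, 838 ± 256 in PST and 833 ± 87.0 in Mes/Per. Its lowest compared class was TC/NK with 217 ± 69.3. Mir22hg was highest in PST (116 ± 33.6 all-gene CPM, the highest class in 7 of 8 libraries), and Podo (podocytes, 77.8 ± 14.4), bIC (72.8 ± 24.1) and PCT (70.4 ± 25.7) came next with overlapping spreads. Mir670hg (Gini coefficient 0.560) was highest in cluster 5 with 28.7 ± 4.94 and SMC/JGC with 16.2 ± 7.42. Mir17hg was highest in CCD (21.7 ± 11.6), Mir133a-1hg in CNT (26.4 ± 10.7) and Mir124-2hg in PST (0.584 ± 0.203).

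Of the snoRNA hosts, Snhg11 (Gini coefficient 0.395) was highest in the proximal tubule. It had 676 ± 144 all-gene CPM in PCT (range 530 to 810) and 509 ± 95.4 in PST, against 168 ± 35.6 in UT, 116 ± 10.9 in Mes/Per and 30.9 ± 1.85 in CNT, the lowest class. PCT was 12.4 times the median class and was the highest class in 7 of 8 libraries. Snhg4 (ENSMUSG00000117869, Gini coefficient 0.495) was highest in the distal nephron, with 58.2 ± 14 in bIC, 52.4 ± 10.8 in cluster 5, 50.0 ± 17.5 in aIC and 40.6 ± 7.63 in CNT, 4 classes within each other's spread, and lowest in Myel with 4.39 ± 4.21. The second Snhg4 entry (0.517) was also highest in bIC with 7.05 ± 2.69. Snhg16 (0.435) was at 15.1 ± 4.34 in PST and 13.9 ± 2.76 in PCT and had 0 UMIs in the 306 TC/NK nuclei of Ctrl and 4 in those of cKOt. Snhg10 (0.450), at 7.02 ± 6.47 in MD (macula densa), rested on few UMIs. Gas5, a growth-arrest transcript that hosts box C/D snoRNAs in its introns, had a Gini coefficient of 0.264 and ranged over compared classes from 25.9 ± 8.66 in CNT to 66.9 ± 15.7 in UT, with 55.3 ± 15.4 in Myel, 53.2 ± 16.97 in TC/NK and 52.6 ± 15.0 in PST. Snhg20 (0.303) ranged from 27.4 ± 13.3 in SMC/JGC to 59.4 ± 13.5 in CNT. The highest class was PST for Snhg8 (20.4 ± 9.395), PCT for Snhg12 (22.3 ± 9.07), CCD for Snhg18 (30.5 ± 3.46), CNT for Snhg14 (38.5 ± 7.66), thin descending limb for Snhg3 (38.3 ± 10.4), UT for Snhg17 (13.3 ± 7.62) and MD for Snhg15 (4.60 ± 6.94). It was TC/NK for Snhg1 (24.5 ± 14.4), Snhg5 (8.96 ± 3.08), Snhg6 (7.04 ± 10.2) and Snhg9 (31.3 ± 27.9), where 306 Ctrl nuclei leave wide spreads.

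**Figure D2:**
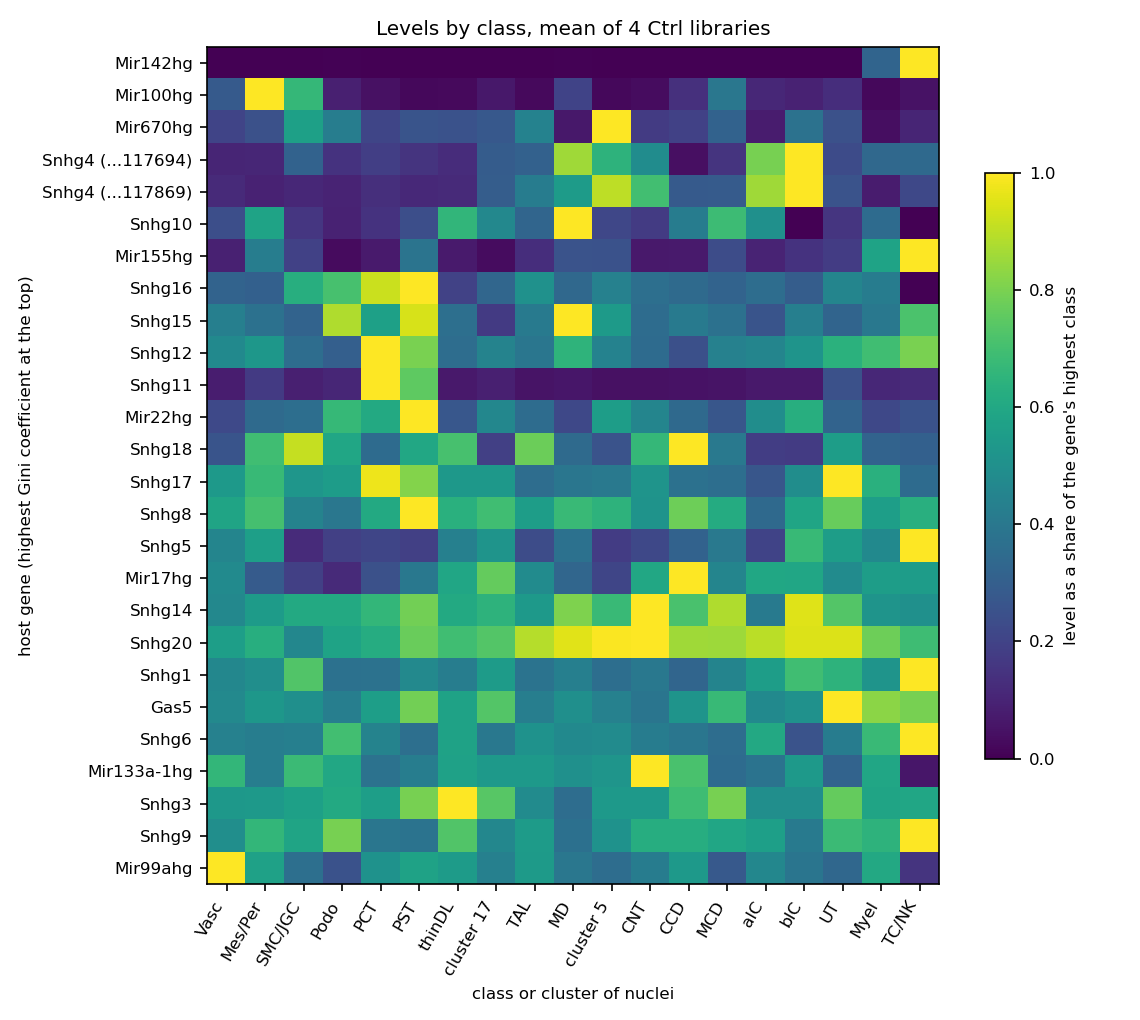
Rows are the 26 host genes with at least 200 UMIs, ordered by Gini coefficient, columns are the 19 compared classes, and the colour is the mean level of the 4 Ctrl libraries as a share of the gene's highest class. Mir142hg is brightest in TC/NK, with Myel next at a much lower share. Mir100hg is brightest in Mes/Per and then SMC/JGC, and Snhg11 in PCT and then PST. The rows at the bottom, down to Mir99ahg, have intermediate values in most classes.

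**Figure D3:**
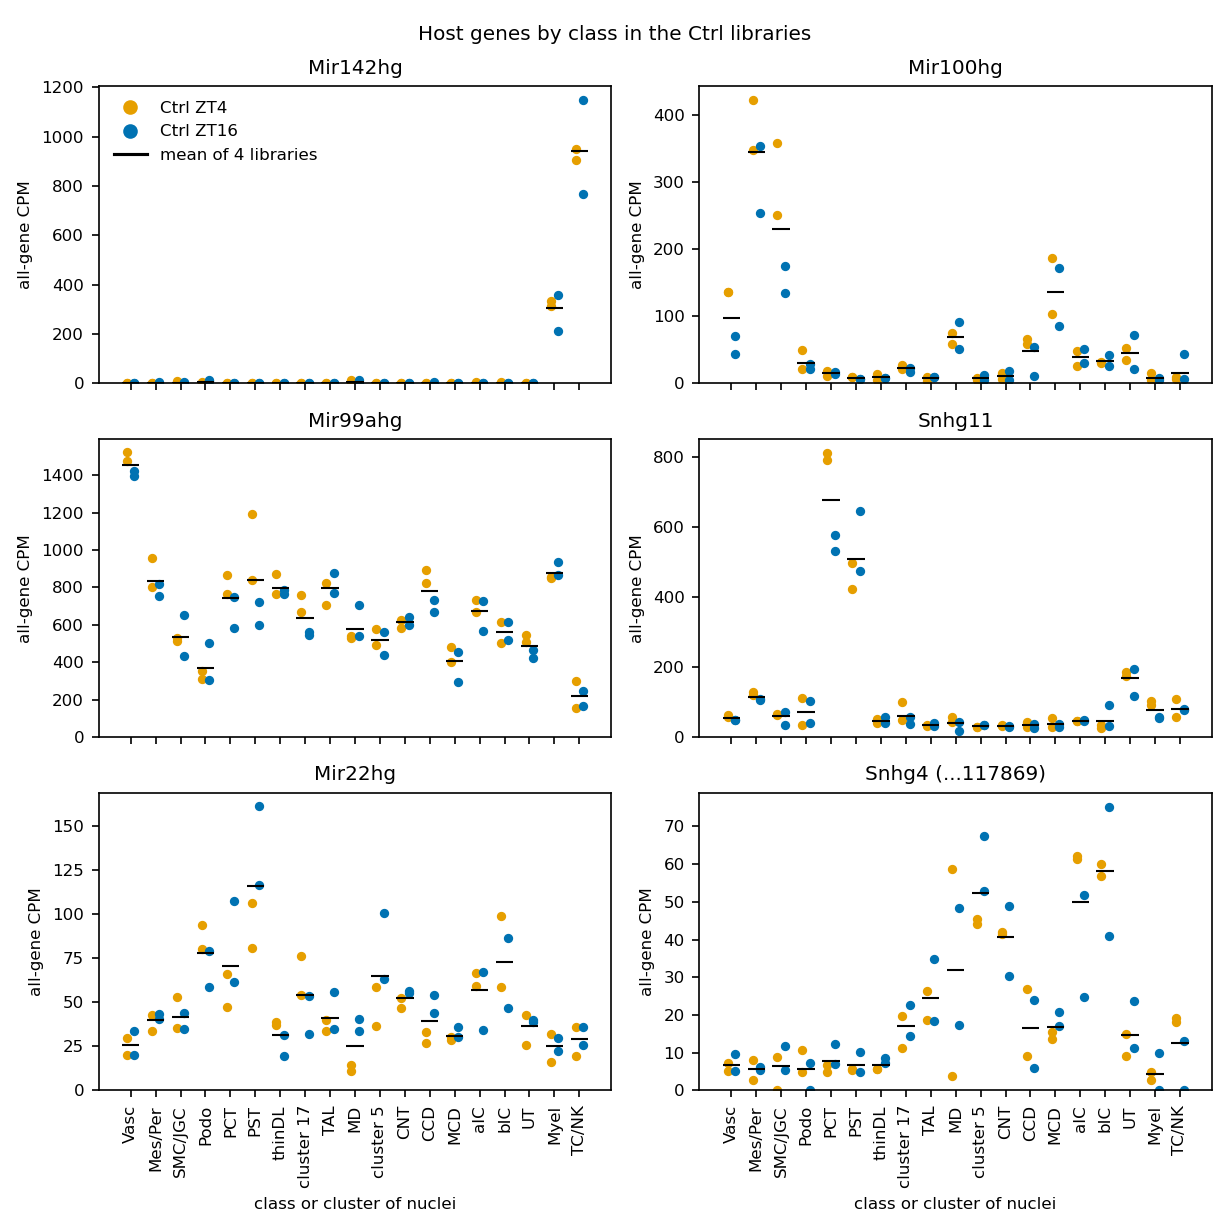
All-gene CPM within a class (vertical axis) in each Ctrl library (points, ZT4 and ZT16) with the mean of the 4 libraries (line), by class, for 6 host genes. Mir99ahg in Vasc lies between 1394 and 1522 in all 4 libraries, above each of its other classes, and Snhg11 in PCT lies between 530 and 810.

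The first comparison asked which host genes differed between the rest and the active phase in Ctrl. In sums over all nuclei none passed edgeR's quasi-likelihood test with an adjusted p under 0.05 (0 of 27, where 0.574% of 4700 lncRNAs passed), and DESeq2 also called 0 (1.02% of all lncRNAs). At an unadjusted p under 0.05 there were 4, against 10.9% of all lncRNAs: Mir17hg, Snhg9, Mir22hg and Snhg10. Mir17hg, precursor of the miR-17 family, had 40.9 and 44.4 lncRNA CPM at ZT4 and 55.4 and 67.4 at ZT16, a log2 fold change of 0.52 (SE 0.215, edgeR adjusted p = 0.377, the smallest of the list). Snhg9 had 62.4 and 84.6 at ZT4 and 101 and 115 at ZT16 (log2 fold change 0.55, SE 0.228, edgeR adjusted p = 0.378). For both genes the ZT16 libraries lay above the ZT4 libraries. Mir22hg had 369 and 281 lncRNA CPM at ZT4 and 496 and 429 at ZT16 (log2 fold change 0.51, SE 0.214, edgeR adjusted p = 0.390). These groups did not overlap, but in all-gene CPM they did, with 65.7 and 48.8 at ZT4 and 90.3 and 61.9 at ZT16. For Snhg10, with 721 UMIs in all, the means were 9.34 ± 0.607 and 14.9 ± 3.78 lncRNA CPM (log2 fold change 0.68, SE 0.293, edgeR adjusted p = 0.412).

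Across the list, 20 of 27 host genes had a positive log2 fold change at ZT16 in Ctrl, with a median of 0.302 beside 0.0224 over all lncRNAs tested, of which 52.2% were positive. The snoRNA hosts made up 15 of these 20, out of 18, with a median of 0.316. Of the microRNA hosts 5 of 9 were positive, with a median of 0.00867. The 2 groups did not overlap for 11 host genes that were higher at ZT16 (20.4% of all lncRNAs) and for 2 that were lower (21.3%), Snhg11 and Mir100hg. In all-gene CPM, Mir670hg, Snhg5, Snhg10, Mir17hg and Snhg9 stayed higher at ZT16 without overlap. Snhg6, Mir22hg, Snhg20, Mir133a-1hg, both Snhg4 entries and Snhg11 overlapped on that scale. Mir100hg and Mir99ahg were lower there without overlap. The share of all lncRNAs without overlap was not computed in all-gene CPM. Fitted with all genes in 1 table, 18 of 27 were positive (median 0.200, all lncRNAs -0.0744), and without replicate 1 of Ctrl ZT16 16 of 27 (median 0.110) and 10 of 18 snoRNA hosts (median 0.0884). The summed level of the snoRNA hosts other than Snhg11 was 1382 and 1291 lncRNA CPM in Ctrl ZT4 and 1770 and 1475 in Ctrl ZT16. In cKOt it was 1556 and 1450 at ZT4 and 1756 and 1483 at ZT16. Snhg11, the snoRNA host with the most UMIs, went the other way in Ctrl, with 1813 and 1786 at ZT4 and 1721 and 1631 at ZT16. The sum therefore does not describe all snoRNA hosts. The share of UMIs on cytosolic ribosomal protein genes moved with this sum in Ctrl, with 0.240% and 0.245% at ZT4 and 0.315% and 0.280% at ZT16. In all cKOt libraries that share lay between 0.236% and 0.256%. Its part in the result was not tested.

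The same question in cKOt gave 0 of 26 host genes by edgeR (0.498% of all lncRNAs), 0 at an unadjusted p under 0.05 (11.1%) and 0 by DESeq2 (0.78%). There were 18 positive log2 fold changes, with a median of 0.0907 beside -0.0245 over all lncRNAs. On the lncRNA scale groups did not overlap for 4 host genes that were higher at ZT16 (19.2%) and 1 that was lower (22.0%). In all-gene CPM these 4 stayed higher, Snhg5 and Snhg20 were higher too, and none of those tested was lower. No share of all lncRNAs was computed on that scale, here or over both genotypes. Without replicate 1 of cKOt ZT16, 7 of 18 snoRNA hosts were positive (median -0.0443), against 12 of 18 (median 0.111) with it. Over both genotypes 0 of 27 passed (3.11% of all lncRNAs), with 2 at an unadjusted p under 0.05, Mir22hg and Snhg4 (ENSMUSG00000117869), where 15.6% of all lncRNAs passed, and 0 by DESeq2 (3.01%). On the lncRNA scale only Snhg4 (ENSMUSG00000117869) had all 4 ZT16 libraries above all 4 ZT4 libraries (3.19% of all lncRNAs), and 0 host genes had them all below (5.73%). In all-gene CPM this entry overlapped, with 14.7 in replicate 1 of Ctrl ZT4 and 13.4 in replicate 2 of Ctrl ZT16. Snhg5 was the host gene without overlap on that scale, higher at ZT16. The second Snhg4 entry overlapped on either scale (log2 fold change 0.10). The first entry had 77.5 ± 7.38 and 81.5 ± 15.1 lncRNA CPM at ZT4 in Ctrl and cKOt. At ZT16 it had 102 ± 12.9 and 107 ± 3.32 (log2 fold change 0.39, SE 0.154, edgeR adjusted p = 0.223). The interaction of genotype and time, which tests whether the time difference depends on genotype, gave 0 of 27 by edgeR (0.0%), 0 at an unadjusted p under 0.05 (4.23%) and 0 by DESeq2 (0.0203%).

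None of the abundant host genes passed in these comparisons. Gas5 had 231 and 181 lncRNA CPM in Ctrl ZT4, 292 and 226 in Ctrl ZT16, 253 and 186 in cKOt ZT4 and 296 and 217 in cKOt ZT16. The higher library of every group lay above the lower library of every other group, so that all groups overlapped. For ZT16 against ZT4 the log2 fold change of Gas5 was 0.33 in Ctrl (95% interval -0.19 to 0.85) and 0.23 in cKOt (-0.29 to 0.74). Mir99ahg had 4440 and 5494 lncRNA CPM in Ctrl ZT4, 3746 and 5372 in Ctrl ZT16, 5090 and 5240 in cKOt ZT4 and 4888 and 6120 in cKOt ZT16. On this scale its groups overlapped throughout, with 95% intervals of -0.58 to 0.33 (Ctrl time points) and -0.40 to 0.51 (genotypes at ZT4). Mir100hg had 280 and 375, then 264 and 254, then 255 and 298, then 233 and 283 in the same order, and Snhg20 had 244 and 228, 291 and 300, 275 and 247, and 271 and 277. For Snhg20, Ctrl ZT16 lay above Ctrl ZT4 (log2 fold change 0.32, SE 0.191, edgeR adjusted p = 0.614), and the cKOt groups lay between them. In all-gene CPM these Ctrl groups overlapped, with 43.5 and 39.7 at ZT4 and 52.99 and 43.3 at ZT16. Those of Mir99ahg did not overlap on that scale, with 791 and 955 at ZT4 and 682 and 775 at ZT16. In Mir22hg the cKOt libraries had 340 and 330 lncRNA CPM at ZT4 and 438 and 346 at ZT16.

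**Figure D4:**
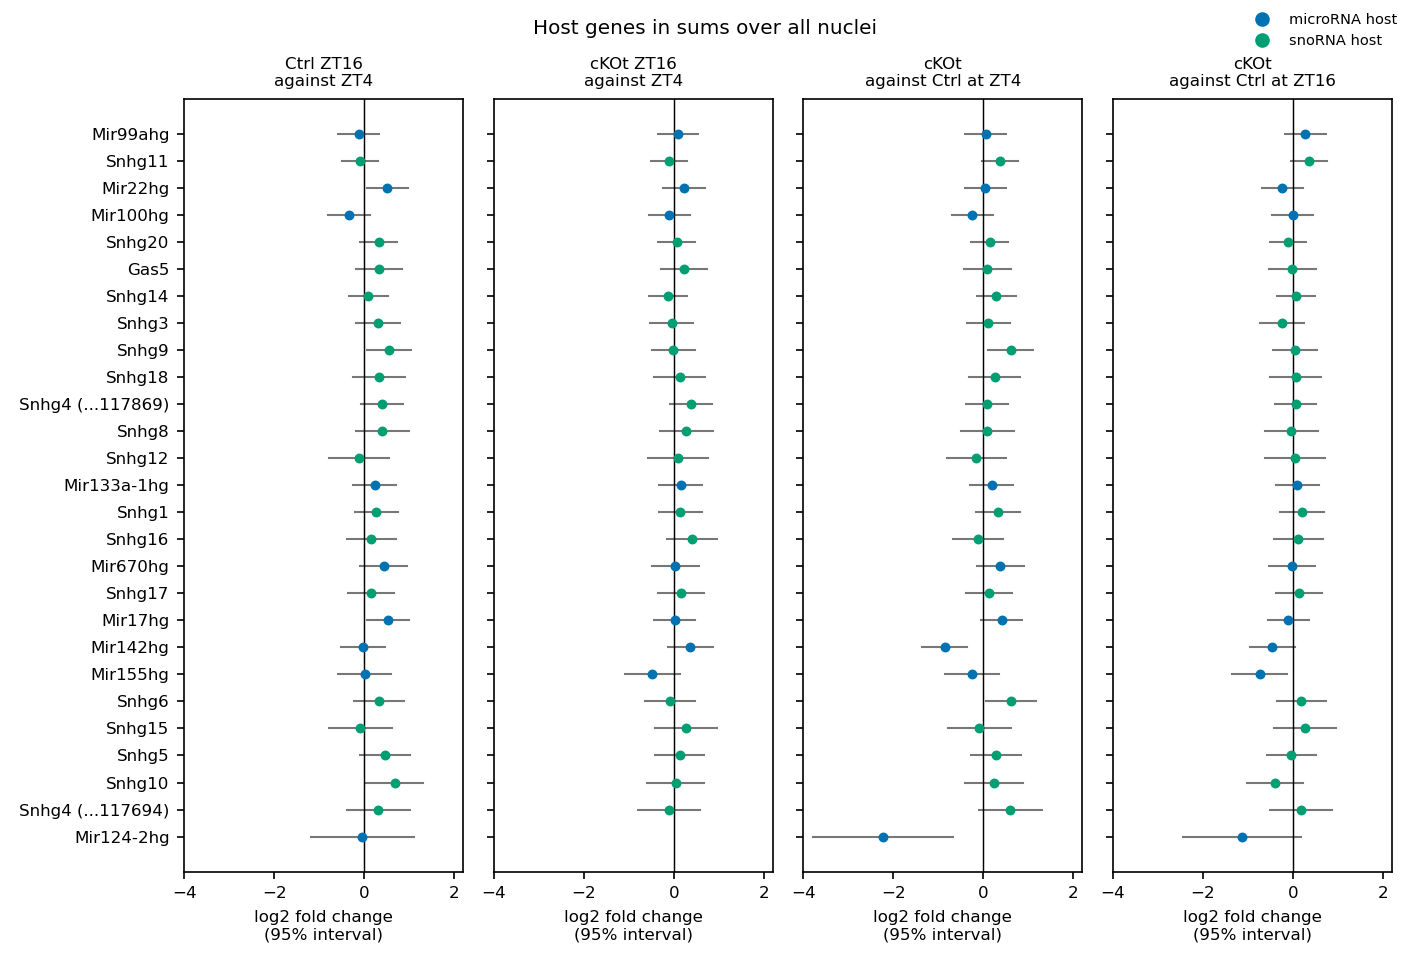
Log2 fold changes (points) with 95% intervals (lines) of the 27 host genes in sums over all nuclei, for the 4 comparisons of 2 groups each, with microRNA hosts in blue and snoRNA hosts in green. In the first panel 20 of 27 points lie right of 0, and Mir142hg and Mir124-2hg lie left of 0 in both panels that compare cKOt with Ctrl; Mir124-2hg has no value for cKOt time points, where it was not tested.

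The comparison of genotypes asked which host genes followed the loss of Bmal1 from the tubule. At ZT4, 0 of 27 host genes passed (0.769% of all lncRNAs), and at ZT16 0 of 27 (0.389%). DESeq2 called 0 in both (1.05% and 0.562%). At an unadjusted p under 0.05 there were 4 at ZT4 (7.84% of all lncRNAs), with Mir142hg and Mir124-2hg lower and Snhg9 and Snhg6 higher in cKOt, and 1 at ZT16 (7.07%), Mir155hg, which was lower. Snhg9 had 96.6 and 127 lncRNA CPM in cKOt ZT4, above the 62.4 and 84.6 of Ctrl ZT4 (log2 fold change 0.60, SE 0.229, edgeR adjusted p = 0.469), and Snhg6 had 24.5 ± 3.83 against 16.1 ± 0.986 (0.61, SE 0.260, edgeR adjusted p = 0.576). In all-gene CPM the Snhg9 groups overlapped, with 14 and 19.7 in cKOt ZT4 and 11.1 and 14.7 in Ctrl ZT4. Mir155hg had 14.6 and 18.4 in cKOt ZT16, below the 22.2 and 33.2 of Ctrl ZT16 (log2 fold change -0.74, SE 0.283, edgeR adjusted p = 0.548). On the lncRNA scale groups did not overlap for 9 host genes that were higher in cKOt at ZT4 (19.1%) and 3 that were lower (17.5%). At ZT16 this held for 2 higher (17.8%) and 4 lower (16.9%). In all-gene CPM at ZT4, Snhg6 and Mir17hg were higher without overlap, and Mir124-2hg, Snhg12, Mir100hg, Mir142hg and Mir155hg were lower. At ZT16 none was higher on that scale, and Mir670hg, Mir124-2hg, Mir142hg, Snhg20, Mir17hg and Mir155hg were lower. For neither time point was a share of all lncRNAs computed in all-gene CPM, so these lists have no background beside them. At ZT4, 20 of 27 log2 fold changes were positive (median 0.135, all lncRNAs 0.0229), and with all genes in 1 table the positive ones were 12 of 27 (median -0.0104, all lncRNAs -0.124). The host genes and all lncRNAs moved down alike under that scaling. At ZT16, 14 of 27 were positive, with a median of 0.0412 beside -0.00337. Snhg11 was the host gene with all 4 cKOt libraries above all 4 Ctrl libraries (2.17% of all lncRNAs), at 1813 and 1786 lncRNA CPM in Ctrl ZT4, 1721 and 1631 in Ctrl ZT16, 2090 and 2589 in cKOt ZT4 and 2259 and 2060 in cKOt ZT16. That separation was on the lncRNA scale. In all-gene CPM, Snhg11 had 323 and 310 in Ctrl ZT4, 314 and 235 in Ctrl ZT16, 302 and 403 in cKOt ZT4 and 351 and 307 in cKOt ZT16, and the genotypes overlapped at both time points. Its log2 fold change over both time points was 0.37 (SE 0.132, edgeR adjusted p = 0.320). PCT, its highest class, made up 13.0% to 19.5% of nuclei in Ctrl and 18.6% to 21.7% in cKOt, and PST 12.3% to 14.4% and 13.3% to 16.9%. Within PCT the log2 fold change of cKOt against Ctrl was 0.05 at ZT4 (SE 0.228, edgeR adjusted p = 0.980) and 0.45 at ZT16 (SE 0.228, edgeR adjusted p = 0.772), and within PST it was 0.19 and -0.18. Over the 19 classes it was positive in 14 at ZT4 (median 0.373) and in 15 at ZT16 (median 0.447), where the classes of a library come from the same mouse. The PCT nuclei of the groups lay in different clusters: cluster 2 held 11.7% and 29.6% of them in Ctrl ZT4 and ZT16 against 51.3% and 76.5% in cKOt, and cluster 7 held 57.1% and 31.2% against 20.3% and 5.21%. The part of these shares in the result was not tested.

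Mir142hg was the host gene nearest to the limit. It had 49.6 and 57.0 lncRNA CPM in Ctrl ZT4, 53.6 and 50.5 in Ctrl ZT16, 31.2 and 27.8 in cKOt ZT4 and 43.8 and 32.0 in cKOt ZT16, so that all 4 cKOt libraries lay below all 4 Ctrl libraries (1.85% of all lncRNAs, with Mir124-2hg as the other host gene). The log2 fold change was -0.86 at ZT4 (SE 0.233, 95% interval -1.35 to -0.36, edgeR adjusted p = 0.166). At ZT16 it was -0.45 (SE 0.230, 95% interval -0.95 to 0.04, edgeR adjusted p = 0.774). Over both time points it was -0.66 (SE 0.163, edgeR adjusted p = 0.0722), where edgeR called 0 host genes (1.5% of all lncRNAs), 5 had an unadjusted p under 0.05 (8.56%) and DESeq2 called Mir142hg (1.71%). In sums over all nuclei fewer cells of a type and less RNA per cell cannot be told apart. TC/NK nuclei, its highest class, made up 0.667% to 0.802% of nuclei in Ctrl and 0.434% to 0.559% in cKOt, B cells 0.197% to 0.364% and 0.0799% to 0.222%, and Myel 1.84% to 3.15% and 1.58% to 2.18%. Within classes the log2 fold change of cKOt against Ctrl at ZT4 was -0.32 in TC/NK (SE 0.278, edgeR adjusted p = 0.881) and -0.55 in Myel (SE 0.246, edgeR adjusted p = 0.641), and at ZT16 it was 0.09 and 0.16. Mir124-2hg, with 43 UMIs in all, had 1.08 and 1.05 lncRNA CPM in Ctrl ZT4, 1.21 and 0.791 in Ctrl ZT16, 0.322 and 0.126 in cKOt ZT4 and 0.371 and 0.567 in cKOt ZT16, and its edgeR adjusted p over both time points was 0.135.

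Within cell classes, 328 pairs of host gene and class were tested between time points in Ctrl, 320 in cKOt, and 322 and 330 between genotypes at ZT4 and ZT16. One pair was called in the first comparison (0.556% of all pairs of lncRNA and class), 1 in the last (0.314%) and 0 in the others (0.688% and 0.47%), and DESeq2 gave the same numbers. At an unadjusted p under 0.05 there were 25, 10, 15 and 14 pairs, or 7.62%, 3.13%, 4.66% and 4.24% of the host pairs, where all pairs gave 9.84%, 9.56%, 7.29% and 6.13%.

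The called pair in Ctrl was Mir100hg (ENSMUSG00000074415) in Vasc, which fell from the rest to the active phase. Within Vasc it had 1112 and 1200 lncRNA CPM in Ctrl ZT4, 571 and 437 in Ctrl ZT16, 1034 and 1061 in cKOt ZT4 and 544 and 786 in cKOt ZT16, from 169 to 590 UMIs per library. In either genotype both ZT16 libraries lay below both ZT4 libraries. In sums over all nuclei 21.3% of lncRNAs did so in Ctrl and 22.0% in cKOt. The share within Vasc was not computed. In Ctrl the means were 504 ± 94.6 at ZT16 and 1156 ± 62.4 at ZT4, a log2 fold change of -1.19 (SE 0.232, 95% interval -1.67 to -0.72, edgeR adjusted p = 0.00724, 0.4% of lncRNAs in Vasc called lower). The call was lost without replicate 2 of Ctrl ZT16 and without either replicate of Ctrl ZT4, with adjusted p up to 0.126 and log2 fold changes from -1.43 to -1.08 over the 8 fits that left out 1 library. In cKOt the log2 fold change was -0.65 (SE 0.231, edgeR adjusted p = 0.328), and the interaction of 0.54 (SE 0.326, edgeR adjusted p = 0.999) did not pass. A test over both genotypes, with 4 mice against 4, was added after this call was seen and uses the same libraries. There Mir100hg fell by 0.92 on the log2 scale (SE 0.164, edgeR adjusted p = 0.00142, 1.38% of lncRNAs in Vasc called lower). Leaving out any 1 of 8 libraries kept the call, with log2 fold changes from -1.09 to -0.81. Between genotypes the log2 fold change in Vasc was -0.14 at ZT4 (95% interval -0.61 to 0.32) and 0.40 at ZT16 (-0.08 to 0.88), and neither passed the test.

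Vasc consisted of 4 clusters, with cluster 0 at 64.5% to 69.6% of its nuclei in the 4 groups and cluster 10 at 25.2% to 30.1%. Cluster 25 held 5.09% and 4.66% in Ctrl ZT4 and ZT16 and 6.24% and 4.14% in cKOt ZT4 and ZT16. The part of these shares in the result was not tested. Mir100hg was higher in clusters 10 and 25 than in cluster 0, at 275 and 281 all-gene CPM in cluster 10 of the Ctrl ZT4 libraries, 433 and 538 in cluster 25 and 33.6 and 45.3 in cluster 0. At Ctrl ZT16 the values were 141 and 77.2, 274 and 110, and 20.8 and 20.9. Fits of single clusters were added after the call of Mir100hg in Vasc was seen. In cluster 10 alone the Ctrl log2 fold change was -1.38 (SE 0.288, edgeR adjusted p = 0.0276, 0.232% of lncRNAs in cluster 10 called lower), lost when any library other than replicate 1 of cKOt ZT16 was left out (adjusted p up to 0.346, log2 fold changes -1.77 to -1.23), and in cKOt it was -0.27 (edgeR adjusted p = 0.847). Over both genotypes cluster 10 gave -0.82 with overlapping groups (SE 0.201, edgeR adjusted p = 0.0535, 0.428% of lncRNAs in cluster 10 called lower), which did not pass, nor did it without any 1 of 8 libraries. In cluster 0 the Ctrl log2 fold change was -0.85 (edgeR adjusted p = 0.211, 0.38% of lncRNAs in cluster 0 called lower). Mir99ahg, the second host of the shared microRNA families, had 12549 ± 1639 lncRNA CPM in Vasc at Ctrl ZT16 and 12663 ± 451 at ZT4, a log2 fold change of -0.01 (SE 0.202, 95% interval -0.43 to 0.40). In other classes Mir100hg had a Ctrl log2 fold change of -0.86 in SMC/JGC (edgeR adjusted p = 0.310), -0.82 in CCD (0.502) and -0.35 in Mes/Per (0.792), its highest class, and 10 of 17 classes were negative. The 8 markers of Mes/Per were all found in Vasc, at a summed 142 to 250 all-gene CPM with 190 and 180 in Ctrl ZT4 and 250 and 166 in Ctrl ZT16. Their part in the result was not tested.

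The called pair between genotypes was Mir155hg (ENSMUSG00000097418) in PST, a segment of the tubule that the transgene targets. Within PST it had 44.5 and 43.3 lncRNA CPM in Ctrl ZT4, 49.7 and 60.2 in Ctrl ZT16, 16.7 and 28.1 in cKOt ZT4 and 18.4 and 18.0 in cKOt ZT16, from 28 to 118 UMIs per library. All 4 cKOt libraries lay below all 4 Ctrl libraries. In sums over all nuclei this held for 1.85% of lncRNAs, and the share within PST was not computed. At ZT16 Mir155hg fell by 1.59 on the log2 scale (SE 0.318, 95% interval -2.28 to -0.90, edgeR adjusted p = 0.0432, 0.342% of lncRNAs in PST called lower), with means of 18.2 ± 0.289 in cKOt and 54.97 ± 7.45 in Ctrl. This call was lost when any library other than the 2 of cKOt ZT4 was left out, with adjusted p up to 0.326 and log2 fold changes from -1.69 to -1.41. At ZT4 the log2 fold change was -0.96 (SE 0.318, edgeR adjusted p = 0.321). A test over both time points was added after the call at ZT16 was seen and uses the same libraries. There Mir155hg fell by 1.27 (SE 0.225, edgeR adjusted p = 0.00778, 1.21% of lncRNAs in PST called lower), from 49.4 ± 7.73 to 20.3 ± 5.24 (n = 4). This call was lost only without replicate 1 or replicate 2 of cKOt ZT16. Leaving out 1 library gave log2 fold changes from -1.50 to -1.13.

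The PST nuclei of the 2 genotypes fell in different clusters: cluster 11 held 58.9% and 61.3% of them in Ctrl ZT4 and ZT16 against 0.593% and 0.136% in cKOt, and cluster 4 held 11.2% and 6.42% against 67.4% and 69.3%. Cluster 9 held 29.9% to 32.3% in every group. Fits of this cluster alone were added after the call in PST was seen. Mir155hg was highest in cluster 9. In cluster 9 alone it had 138 and 120 lncRNA CPM in Ctrl ZT4, 141 and 198 in Ctrl ZT16, 51.9 and 58.0 in cKOt ZT4 and 55.6 and 62.4 in cKOt ZT16, again with all cKOt libraries below all Ctrl libraries. The share of lncRNAs in cluster 9 for which this holds was not computed. The log2 fold change was -1.52 at ZT16 (SE 0.329, edgeR adjusted p = 0.0383, DESeq2 adjusted p = 0.0782, 0.296% of lncRNAs in cluster 9 called lower, lost without either library of Ctrl ZT16 or of cKOt ZT16 or without replicate 2 of Ctrl ZT4, with adjusted p up to 0.257 and log2 fold changes from -1.75 to -1.18), -1.21 at ZT4 (edgeR adjusted p = 0.172) and -1.36 over both time points (SE 0.236, edgeR adjusted p = 0.00479, 1.27% called lower), the last lost only without replicate 1 of cKOt ZT16 (edgeR adjusted p = 0.0566). Of the 11 Myel markers 10 to 11 had a UMI in PST, at a summed 67.1 to 107.5 all-gene CPM in Ctrl and 47.0 to 68.1 in cKOt, most of it Csf1r (34.5 to 91.0). Of the 7 TC/NK markers 4 to 6 had a UMI (summed 6.65 to 13.9), with Cd3e between 0 and 0.311, and of the 8 B cell markers 4 to 8 (summed 0.672 to 3.71). Their part in the result was not tested. Elsewhere at ZT16 the log2 fold change of Mir155hg was -1.07 in TAL (edgeR adjusted p = 0.773) and 0.96 in Myel (edgeR adjusted p = 0.892).

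**Figure D5:**
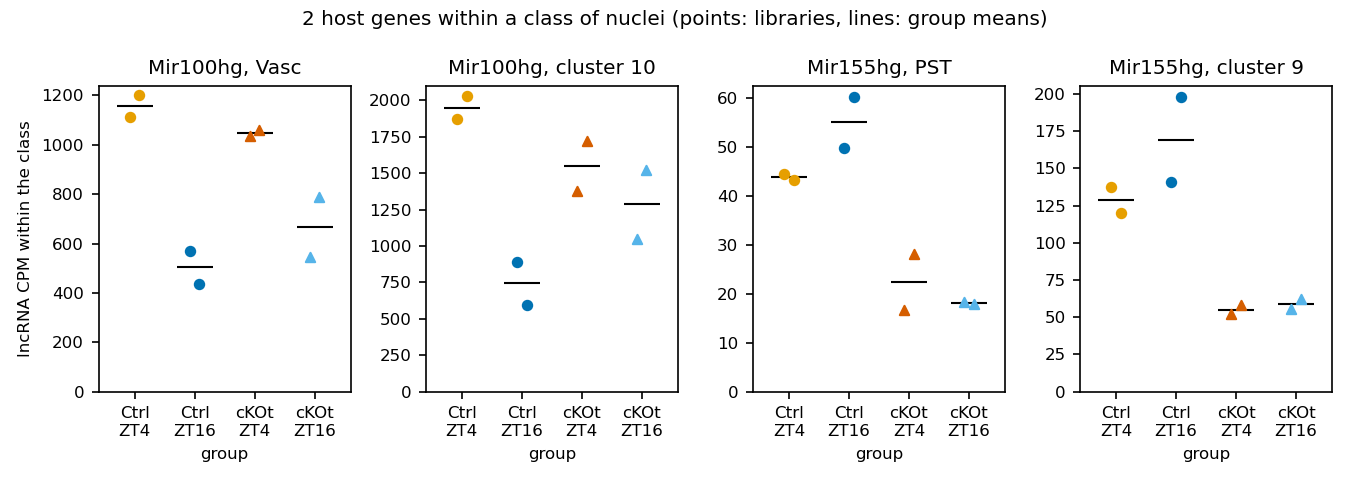
LncRNA CPM within a class (vertical axis, from 0) in each library (points) with the group mean (line), by group, for Mir100hg in Vasc and its cluster 10 and for Mir155hg in PST and its cluster 9. In Vasc both ZT16 libraries of either genotype lie below the ZT4 libraries, and in PST and cluster 9 all 4 cKOt libraries lie below the Ctrl libraries.

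Clock proteins bind short motifs, so the promoters of the host genes were read for them: the E-box CACGTG bound by the BMAL1 and CLOCK pair, the D-box TTATGTAA bound by DBP and its relatives, and the core TAGGTCA of the element bound by ROR and REV-ERB. Both strands were searched, the E-box reads the same on both, and no 2 of these motifs overlapped. Windows ran from 250 bases before to 50 after each RefSeq start (GRCm38.p6) and matched 21 of the host genes with 27 promoters. The window counted for Mir17hg lies within its microRNA cluster, where it contains miR-20a-5p and miR-19b-3p, so it is not the start of the whole transcript. The E-box occurred in 2 of the 27 promoters, those of Snhg9 and Snhg15, and in 7.15% of all 32851 promoters of this length, and the D-box (0.938% of all) and RORE core (2.61% of all) occurred in 0. Both promoters of Mir100hg, the gene called between time points, are shown first because they held none of the motifs. The one of Mir155hg (chr16:84712773-84713072, + strand) held none either. The promoter of Snhg9 is shown with its E-box in capitals, 170 bases before the start. It was chosen after its values had been seen.
Mir100hg, chr9:41376276-41376575, + strand: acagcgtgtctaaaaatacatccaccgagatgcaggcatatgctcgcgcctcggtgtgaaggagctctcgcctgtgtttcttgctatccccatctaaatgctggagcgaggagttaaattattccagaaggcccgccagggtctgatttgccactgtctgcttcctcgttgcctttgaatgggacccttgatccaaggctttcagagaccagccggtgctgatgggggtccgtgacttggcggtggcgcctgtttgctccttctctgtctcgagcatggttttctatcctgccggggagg
Mir100hg, chr9:41474643-41474942, + strand: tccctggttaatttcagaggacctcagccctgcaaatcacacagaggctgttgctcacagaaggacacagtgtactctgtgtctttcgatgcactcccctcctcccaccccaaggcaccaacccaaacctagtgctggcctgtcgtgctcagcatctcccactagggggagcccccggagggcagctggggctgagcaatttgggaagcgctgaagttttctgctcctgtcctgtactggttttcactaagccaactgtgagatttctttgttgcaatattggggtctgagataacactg
Snhg9, chr17:24719916-24720215, - strand: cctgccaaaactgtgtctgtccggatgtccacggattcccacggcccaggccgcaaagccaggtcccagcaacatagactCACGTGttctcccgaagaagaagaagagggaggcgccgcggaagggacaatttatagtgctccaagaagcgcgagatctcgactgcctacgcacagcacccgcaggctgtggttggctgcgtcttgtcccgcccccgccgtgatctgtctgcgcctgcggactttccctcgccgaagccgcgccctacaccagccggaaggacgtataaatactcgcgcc
A match says only that these letters occur in the window.

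The genes that process the hosted RNAs were compared in the same way: 17 of the microRNA pathway (Drosha, Dgcr8, Dicer1, Argonautes and partners), 17 of snoRNA particles and their assembly (Fbl, Nop56, Dkc1 and others) and 16 of nonsense-mediated decay (Upf1, Smg1 and others). All 50 were tested, and 0 passed in each of the 4 comparisons by edgeR, where 0.142% of mRNAs passed for time points in Ctrl, 0.0% in cKOt, 0.446% between genotypes at ZT4 and 0.174% at ZT16. DESeq2 called 0 of them in each, where it called 234 of 16153, 168 of 16057, 344 of 16133 and 171 of 16082 mRNAs. At an unadjusted p under 0.05 there were 2 in Ctrl and 2 in cKOt, with Ddx5 in both, 1 between genotypes at ZT4 and 0 at ZT16, where 9.96%, 8.33%, 8.88% and 6.11% of all mRNAs passed. Ddx5, a helicase that assists Drosha, had a log2 fold change for ZT16 against ZT4 of 0.47 in Ctrl and 0.43 in cKOt, and over both genotypes it was the 1 gene of the lists called by DESeq2 and not by edgeR (log2 fold change 0.45, edgeR adjusted p = 0.134), where DESeq2 called 512 and edgeR 89 of 16339 mRNAs. Positive log2 fold changes numbered 27, 31, 33 and 40 of 50 in the 4 comparisons, with medians of 0.00869, 0.0154, 0.0509 and 0.0716 beside -0.00314, -0.00936, 0.00287 and 0.00322 over all mRNAs tested.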

How the data were processed

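Nuclei from frozen kidney sections of 8 mice were sorted by DAPI and sequenced with 10x Genomics 3′ chemistry, and the counts deposited by the authors are UMI counts per gene and barcode, made with bcl2fastq 2.20 and Cell Ranger 7.1.0. The study's methods name an mm10 reference and the submitters' processing notes GRCm39, so no coordinates were taken from the files. Sequences come from RefSeq (GRCm38.p6), and gene spans, overlaps and hosted small RNAs from GENCODE vM39 by Ensembl ID. The sources used here do not say whether introns were counted or on which strand.

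The 81391 nuclei kept had 500 or more genes, 800 or more UMIs and no more than 2% of UMIs on mitochondrial genes. They were clustered with scanpy 1.11.5 (2000 variable genes, 1000 principal components, 20 neighbours, resolution 2.2). Of 38 clusters 34, with 98.49% of nuclei, matched a marker list, and 2 of these, clusters 5 and 17 (5.14% and 2.09% of nuclei), failed a check of their leading genes and are given by number. Called doublets (5.37%) stayed in, and a class was compared with at least 10 nuclei in every library. Counts were summed per library, or per library and class, and tested with the quasi-likelihood test of edgeR 4.0.16 in 1 model of the 4 groups on the lncRNA table alone, with TMM scaling, a minimum of 5 counts in both replicates of a compared group, and Benjamini-Hochberg adjustment within each comparison at a limit of 0.05. The pairs called used the adjustment over all lncRNAs of their class. DESeq2 1.42.0 was the alternative test. Other alternatives were RLE size factors, all genes in 1 table, no count filter, all deposited barcodes, doublets left out, 50 principal components, the replicate number as a block and leaving out each library. Levels over all nuclei in all-gene CPM were added after the data were seen. So were the fits of clusters 0, 9 and 10 alone. The tests within Vasc and PST over both genotypes, over both time points and for the interaction were added then too. These were run only where a pair had been called, on the same libraries. The models were also run on counts simulated with dispersions estimated from these data, and no result given here rests on that run. Each library is 1 mouse and n is 2 per group.

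Every host gene is named at least once. Values in all libraries are given for Gas5, for the 6 genes with the most UMIs and for called genes, and class values for those and the 8 genes of highest Gini coefficient. Genes shown beyond that were chosen after their values were seen. The genes, lists and tests were chosen with earlier results of these data known. No p-value is given over the list alone. Some items are not reported here.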

Additional observations from a re-analysis of the deposited data

How the results depend on the processing

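The number of host genes called in sums over all nuclei was 0 in each of the 7 comparisons and stayed 0 under the alternatives and without any 1 library, except for cKOt against Ctrl over both time points, where DESeq2 called 1 and edgeR without a count filter called 1. The pairs of host gene and class called between time points in Ctrl numbered 1, and 2 with 50 principal components, which added Gas5 in distal convoluted tubule nuclei (log2 fold change 1.26, edgeR adjusted p = 0.0428). Leaving out 1 library gave 0 to 1 pairs there (0 without replicate 2 of Ctrl ZT16 or either replicate of Ctrl ZT4) and 0 to 1 between genotypes at ZT16 (0 without any library but the 2 of cKOt ZT4). The cause was not tested.

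With the replicate number as a block, the pairs called between time points in Ctrl became 2, with Mir22hg in cluster 5 added (log2 fold change 0.88, edgeR adjusted p = 0.0119). The labels do not say that a number marks a shared litter or day. The deviations of same-numbered libraries correlated between -0.110 and 0.239 over lncRNAs and between -0.246 and 0.387 over mRNAs, not every one above 0.1. The highest values joined the genotypes at the same time point. Over lncRNAs these were 0.235 at ZT4 and 0.239 at ZT16, and over mRNAs 0.380 and 0.387. Between time points the lncRNA values were -0.110 in Ctrl and 0.138 in cKOt. The numbers were not taken to pair the mice across all groups. Pairing within a time point was not modelled, and its part in the genotype comparisons was not tested. The block over all groups also brought Mir100hg in cluster 0 over both genotypes under the limit (edgeR adjusted p = 0.0393, against 0.138 without the block). It changed no other call in sums over all nuclei, in pairs of host gene and class or in the clusters tested.

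Small log2 fold changes of abundant genes, none of them called, changed sign. With all genes in 1 table, cKOt against Ctrl at ZT4 gave -0.0925 for Mir99ahg, -0.110 for Mir22hg, -0.0104 for Snhg20 and -0.0704 for Gas5, while the median of all lncRNAs moved alike, from 0.0229 to -0.124. Without a count filter, cKOt against Ctrl at ZT16 gave 0.0124 for Mir100hg and 0.0024 for Gas5. Leaving out 1 library gave, for time points in Ctrl, -0.437 to 0.0924 for Mir99ahg. For time points in cKOt it gave -0.112 to 0.241 for Mir99ahg, -0.225 to 0.0482 for Snhg11, -0.281 to 0.0277 for Mir100hg, -0.0058 to 0.186 for Snhg20 and -0.0194 to 0.4998 for Gas5. Between genotypes at ZT4 it gave -0.0696 to 0.192 for Mir99ahg, -0.166 to 0.276 for Mir22hg and -0.194 to 0.297 for Gas5. Between genotypes at ZT16 it gave -0.195 to 0.121 for Mir100hg and -0.262 to 0.193 for Gas5. Where leaving out 1 library left a group with 1, that library was assumed to vary like the other groups. With 2 mice per group, p-values measure only the spread between these mice.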
